A study of Rattus norvegicus with 43 samples.

Results

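RNA levels of 46 genes of the mitotic spindle, the kinetochore and cytokinesis were examined in 43 male rats, in the anterior lobe of the pituitary. The genes are a chosen list of known components of cell division, and for 42 of them the array carried at least 1 probe set annotated to that gene symbol alone, among 14217 genes with such a probe set. No singly named probe set was found for Nek2, Ndc80, Anln and Cep55, which have no value here. Where a gene had more than 1 probe set, that with the highest mean level was used. Of the 42 genes, 39 passed a filter on dim probe sets (mean log2 above 7.16, the median of all probe sets), as did 9407 genes in all. Bub1b, Cenpe and Birc5 did not pass. Of the 42 genes, 34 are textbook cell division genes. The other 8 (Cdca3, Ect2, Arhgap11a, Knstrn, Mis18a, Shcbp1, Aspm and Kif20b) had entered the list because they followed a proliferation score in an earlier analysis of these same arrays, so their relation to other mitotic genes is not independent evidence, and counts of calls, pairs and promoters are also given without them.

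A dividing cell enters mitosis when CDK1, bound to a B-type cyclin, becomes active. The kinetochore then attaches each chromosome to spindle microtubules, the spindle checkpoint holds back the anaphase-promoting complex until all are attached, and the central spindle and a RhoA-driven contractile ring complete cytokinesis. Transcripts of these genes rise late in the cell cycle and are scarce in resting cells, so in a bulk tissue they are used as a gauge of dividing cells. In rats, estrogens stimulate division of lactotrophs, the prolactin cells of the anterior pituitary, and do so to a different extent in different inbred strains.

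All 43 animals belonged to the F2 generation of a cross of Copenhagen (COP) females with ACI males. Each carried a silastic implant with 5 mg diethylstilbestrol (DES), a synthetic estrogen, from 9 weeks of age until sacrifice at 21 weeks, a treatment of 12 weeks, and bromodeoxyuridine (BrdU, 50 mg/kg), which dividing cells take up into DNA, was injected 4 hours before the end. One biotin-labelled cRNA sample was hybridised per animal. The series' design text gives the animals as those with the 22 highest and 21 lowest pituitary weights, but no label says which animal had which, no untreated animal is among the samples, and the 43 arrays therefore form 1 group without a contrast. The comparisons below ask which mitotic genes varied together from animal to animal. In bulk tissue, fewer cells of a type and less RNA per cell cannot be told apart.

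Values are log2 of the deposited intensity plus 16, a scale on which differences of dim probe sets are understated, and a level is compared only between animals, never between probe sets. Animals are named by the number in their labels. The tissue markers were present: Prl (prolactin) lay between 15.40 and 16.14 and Gh1 (growth hormone) between 13.96 and 15.62 in the animals other than 38. The array of animal 43 stood apart from the rest, since its correlation with the remaining arrays averaged 0.927, against 0.967 or more for each of them, and it held the lowest or the highest value of 41.8% of all probe sets passing the filter. Animal 38 had the lowest mean r of the arrays other than that of animal 43 (0.9669), just below that of animal 13 (0.9678). It held the highest value of 709 and the lowest of 504 of the 15521 probe sets passing the filter. In mitotic genes it stood further apart, as described below. Spread is therefore given with and without animal 38, and the regressions use the other 42 animals, with all 43 beside them.

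Many mitotic genes share short promoter elements, the CCAAT box bound by NF-Y and the cell cycle homology region (CHR) bound by the DREAM and MuvB complexes. RefSeq promoters (assembly GRCr8, 250 bases before to 50 after the start) were found for 37 of the 42 genes. Of 33469 listed promoters, only the first of each of the 27457 genes was used, so that other starts of a gene were not searched. They were missing for Ccna2, Aurkb, Ube2c, Pbk and Racgap1. The letters CCAAT for the CCAAT box, TTTGAA or TTCGAA for the CHR, and TTTCCCGC or TTTGGCGC for E2F were searched on both strands, and no motif overlaps another in its letters. CCAAT was present at least 2 times in 51.4% of the mitotic promoters against 11.5% of all 27457 promoters, and at least once in 70.3% against 37.7%. A CHR was present in 70.3% against 19.5%, and at least 2 CCAAT boxes together with a CHR in 43.2% against 2.34%. Among the 29 promoters of genes not picked from these data the shares were 55.2%, 75.9%, 69.0% and 48.3%, in the same order. None of the 37 held the E2F letters, which 1.53% of all promoters hold, and 5 of them (13.5%, against 50.6% of all) held neither CCAAT nor CHR: Arhgap11a, Aurka, Bub1, Kif2c and Melk. A match is a description of letters in this window, not of a bound site.

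The last 150 bases before the start are shown for 6 genes that followed the proliferation marker Mki67 and for Cdc20 and Aurka, which did not, so that both patterns can be set beside the values that follow. Capitals mark the CCAAT box, which reads ATTGG where it lies on the other strand, and the CHR, which reads TTCAAA there. Each sequence is read in the direction of transcription, and the positions are chr20:19265143-19265292 (plus strand) for Cdk1, chr2:33655226-33655375 (minus strand) for Ccnb1, chr17:13727520-13727669 (minus strand) for Cks2, chr10:84473094-84473243 (minus strand) for Top2a, chr10:25665216-25665365 (minus strand) for Hmmr, chr13:53625434-53625583 (plus strand) for Aspm, chr5:137255800-137255949 (minus strand) for Cdc20 and chr3:181560770-181560919 (minus strand) for Aurka.
Cdk1: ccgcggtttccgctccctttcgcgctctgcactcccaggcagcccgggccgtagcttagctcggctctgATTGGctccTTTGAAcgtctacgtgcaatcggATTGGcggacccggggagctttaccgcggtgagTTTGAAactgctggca
Ccnb1: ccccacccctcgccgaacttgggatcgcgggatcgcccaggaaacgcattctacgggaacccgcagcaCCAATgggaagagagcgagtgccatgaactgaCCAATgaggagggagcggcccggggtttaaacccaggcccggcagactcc
Cks2: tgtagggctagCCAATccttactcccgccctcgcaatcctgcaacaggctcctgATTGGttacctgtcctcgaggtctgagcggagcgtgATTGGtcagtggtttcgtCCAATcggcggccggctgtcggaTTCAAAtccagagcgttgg
Top2a: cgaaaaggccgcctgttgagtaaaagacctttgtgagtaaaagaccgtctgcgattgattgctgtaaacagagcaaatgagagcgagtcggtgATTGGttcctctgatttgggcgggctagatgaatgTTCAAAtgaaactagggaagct
Hmmr: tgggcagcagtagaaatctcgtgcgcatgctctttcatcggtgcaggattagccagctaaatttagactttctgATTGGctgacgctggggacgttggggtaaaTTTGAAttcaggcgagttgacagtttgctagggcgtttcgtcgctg
Aspm: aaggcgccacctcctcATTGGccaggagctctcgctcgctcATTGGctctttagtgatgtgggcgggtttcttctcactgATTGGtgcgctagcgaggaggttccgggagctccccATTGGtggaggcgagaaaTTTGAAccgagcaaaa
Cdc20: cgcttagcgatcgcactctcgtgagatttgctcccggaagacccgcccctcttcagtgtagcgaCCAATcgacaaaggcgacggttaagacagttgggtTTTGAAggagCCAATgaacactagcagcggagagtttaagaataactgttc
Aurka: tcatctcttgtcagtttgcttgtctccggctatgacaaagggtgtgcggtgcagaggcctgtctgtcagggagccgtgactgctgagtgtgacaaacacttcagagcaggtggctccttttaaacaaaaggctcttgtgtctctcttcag
The stretches of Cks2 and Aspm hold 4 CCAAT boxes and 1 CHR each, that of Cdk1 holds 2 and 2, and that of Ccnb1 holds 2 CCAAT boxes and no CHR. The stretch of Cdc20 holds 2 CCAAT boxes and 1 CHR, and that of Aurka holds neither. Each stretch belongs to the first listed start of its gene, and says nothing of any other start.

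**Figure D1:**
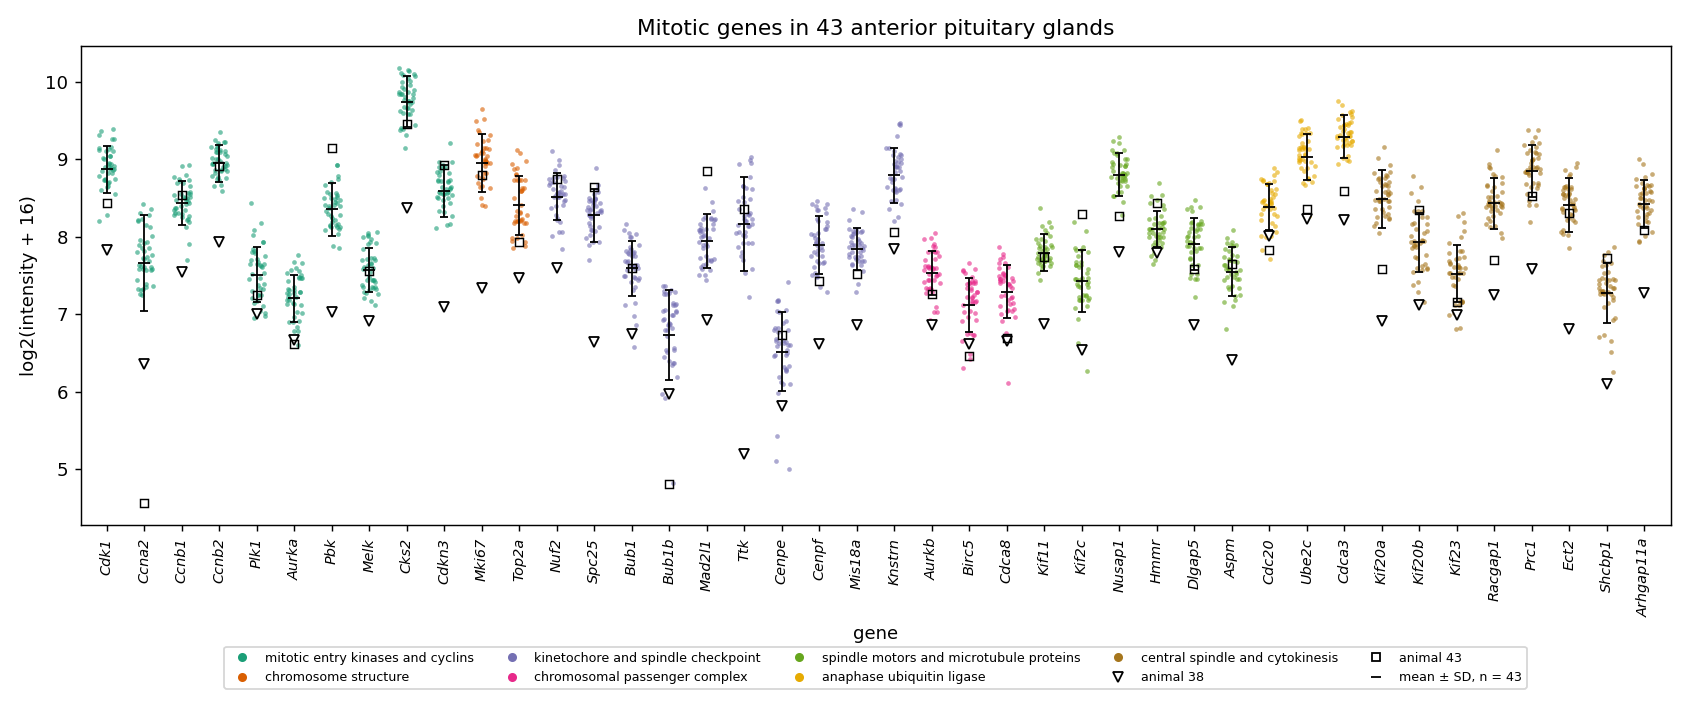
Levels of the 42 mitotic genes on the array (y axis, log2 of intensity plus 16) in 43 anterior pituitary glands, 1 point per animal, coloured by role, with the mean and SD as black bars. Animal 38 (open triangles) is the lowest of the 43 animals in 30 of the 42 genes, and animal 43 (open squares) is the lowest in 2 and the highest in 3.

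Leaving out animals 38 and 43, the highest and the lowest animal differed by 1.69 fold (Ccnb2) to 3.81 fold (Kif2c) in intensity plus 16 among the genes passing the filter. Animal 38 had less than the typical animal of every mitotic gene. Over the 42 genes the median SD was 0.339 in 43 animals and 0.281 without animal 38. Animal 38 had the lowest value of all animals in 30 of 42 genes (71.4%), against 3.25% of all probe sets passing the filter, and among the genes not picked from these data that passed the filter in 22 of 31 (71.0%). It lay below the median of the other animals in 42 of 42 genes, with a median difference of -1.02 and a range from -3.02 to -0.30, whereas over all probe sets passing the filter the median difference was 0.02. Animal 38 had already stood apart in earlier results of these same arrays, so these shares and differences are a description only.

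Among genes of chromosome structure, Mki67, which encodes the Ki-67 protein that coats mitotic chromosomes, had values of 7.34 (lowest), 8.98 (median) and 9.65 (highest), with a mean of 8.95 ± 0.38 (SD, n = 43) and 8.99 ± 0.28 without animal 38. Animal 38 held the lowest value, and the next lowest was 8.40. Top2a, the topoisomerase that disentangles sister chromatids, had values of 7.47, 8.32 and 9.11 (8.41 ± 0.38, SD, n = 43), again with animal 38 lowest and the next at 7.86. In both genes animal 38 lay outside the range of the other 42 animals.

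Among the kinases and cyclins of mitotic entry, Cdk1, the central mitotic kinase, had a lowest, median and highest value of 7.82, 8.88 and 9.39, and without animal 38 the lowest was 8.21. Cks2, the small subunit that docks CDK1 on its substrates, had values of 8.37, 9.79 and 10.18, with the next lowest at 9.14. Cdkn3, a phosphatase of cyclin-dependent kinases, had values of 7.09, 8.62 and 9.22, with the next lowest at 8.12. In all 3 genes animal 38 was the lowest by a gap wider than the SD of the other 42 animals. Ccnb1 (cyclin B1) had values of 7.54, 8.47 and 8.93, and Ccnb2 (cyclin B2) had values of 7.93, 8.95 and 9.35, and both were lowest in animal 38. Ccna2 (cyclin A2) was the exception among the cyclins, since its lowest value of 4.56 came from animal 43 and animal 38 was next at 6.36. Its SD was 0.62 in all 43 animals and 0.33 without animals 38 and 43. Plk1, the polo-like kinase, ranged from 6.96 to 8.43 with 7.01 in animal 38. Aurka, the kinase of the spindle poles, ranged from 6.60 to 7.77 with 6.66 in animal 38, so that in these kinases animal 38 was at rank 3 from the lowest and within the range of the others. Pbk and Melk, mitotic kinases with less settled roles, were lowest in animal 38 (7.03 and 6.92), and Pbk was highest in animal 43 (9.14).

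The widest gap between animal 38 and the others was found in the kinetochore and checkpoint group. Ttk, the kinase that starts the spindle checkpoint, had values of 5.20, 8.20 and 9.02. The lowest, in animal 38, lay 3.02 below the median of the others, an 8.08-fold difference in intensity plus 16, and the next animal was at 7.23. The SD of Ttk was 0.61 with animal 38 and 0.41 without it. Spc25, a subunit of the NDC80 complex that grips microtubules, had values of 6.65, 8.34 and 8.88, with the next lowest at 7.69, and its partner Nuf2 had 7.60, 8.56 and 9.10, with the next at 7.84. Cenpf, a large kinetochore and nuclear matrix protein, had values of 6.62, 7.92 and 8.46, with the next lowest at 7.29. Knstrn, which binds microtubule ends at the kinetochore, Mis18a, which loads the centromeric histone, and Mad2l1, the checkpoint inhibitor of CDC20, were also lowest in animal 38, at 7.84, 6.86 and 6.93. Bub1, a checkpoint kinase, was at rank 2 from the lowest there (6.75, with 6.57 in animal 6). The dim genes Bub1b (lowest 4.81) and Cenpe (lowest 5.01) had their lowest values in animals 43 and 26, and animal 38 was at rank 4 from the lowest in both.

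Of the chromosomal passenger complex, which corrects faulty attachments, the kinase gene Aurkb was lowest in animal 38 at 6.86 (median 7.58, highest 8.04). Its partner genes Cdca8 (borealin, 6.65 in animal 38, lowest 6.11) and Birc5 (survivin, 6.61 in animal 38, lowest 6.30) were not. Among motors and microtubule proteins, Kif11, the motor that separates the spindle poles, had values of 6.87, 7.76 and 8.37, and Nusap1, a microtubule bundler, had 7.80, 8.81 and 9.29, both lowest in animal 38. Aspm, of the spindle poles (6.41), and Dlgap5, of kinetochore fibres (6.86), were lowest there too. Kif2c, a microtubule depolymerase, was at rank 2 from the lowest in animal 38 (6.54), and Hmmr, a spindle assembly factor, showed the smallest difference of the 42 genes, 0.30 below the median of the other animals.

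Among genes grouped here with the anaphase ubiquitin ligase, Ube2c, its ubiquitin-conjugating enzyme, had values of 8.23, 9.06 and 9.50, and Cdca3, a partner of ubiquitin ligases that promotes mitotic entry, had 8.21, 9.30 and 9.75. Animal 38 was lowest in both, and for Cdca3 animal 43 was next at 8.60. Cdc20, the activator of the ligase, ranged from 7.71 to 8.88, and at 8.01 animal 38 was at rank 6 from the lowest. In the cytokinesis group animal 38 was lowest in 7 of 8 genes. Ect2, the RhoA exchange factor, had values of 6.81, 8.43 and 8.95, with the next lowest at 7.86, and Kif20a, a central spindle motor, had 6.91, 8.54 and 9.16, with animal 43 next at 7.59. Racgap1 (7.25) and Kif23 (6.99), the 2 subunits of centralspindlin, differed in that animal 38 was lowest for Racgap1 but at rank 4 from the lowest for Kif23. Prc1, which cross-links the central spindle, lay at 7.58 in animal 38 against 8.19 in the next animal, and Arhgap11a, a RhoA GTPase-activating protein, at 7.28 against 7.93. Shcbp1, a midbody protein, lay at 6.11 there against 6.26 in the next animal.

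Of 16 markers of hormone-producing cells, 5 had their highest value of all animals in animal 38 and none its lowest, and 12 lay above and 4 below the median of the others there. Of all 15521 probe sets passing the filter, 709 were highest and 504 (3.25%) lowest in animal 38, and 7264 lay below the median of the others. In animal 38 Tshb, the thyrotropin subunit, was at 14.27 against a highest value of 14.02 in the others, Trhr, the receptor for thyrotropin-releasing hormone, at 12.73 against 12.37, Fshb, the follitropin subunit, at 9.01 against 8.85, Agtr1b, an angiotensin receptor listed as a lactotroph marker, at 9.47 against 9.12, and Gh1 at 15.65 against 15.62. Prl lay within the range of the others, at 15.71. The 4 below the median were the somatotroph markers Dlk1 (by a difference of -0.55) and Sstr2 (-0.51), the lutropin subunit gene Lhb (-0.24) and Pcsk2 (-0.07). Of genes near mitosis that are not on the list, 4 of 9 genes of the centromeric histone and constitutive centromere network were lowest in animal 38, with a median difference of -0.65 from the other animals. For DNA replication this was 4 of 24, with a median of -0.21, and for core subunits of the anaphase-promoting complex 1 of 15, with a median of 0.01. The array quality of animal 38 was within the range of the others, as judged by the excess of 3' over 5' signal of the actin control, which was 1.46 log2 units and lay between 1.26 and 1.67 on all arrays but that of animal 43. In animal 43 this excess was 1.97. For the GAPDH control it was 0.45 in animal 43 and between 0.05 and 0.29 on the other arrays. Animal 38 was lowest in 30 of the 42 genes also with quantile normalization.

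**Figure D2:**
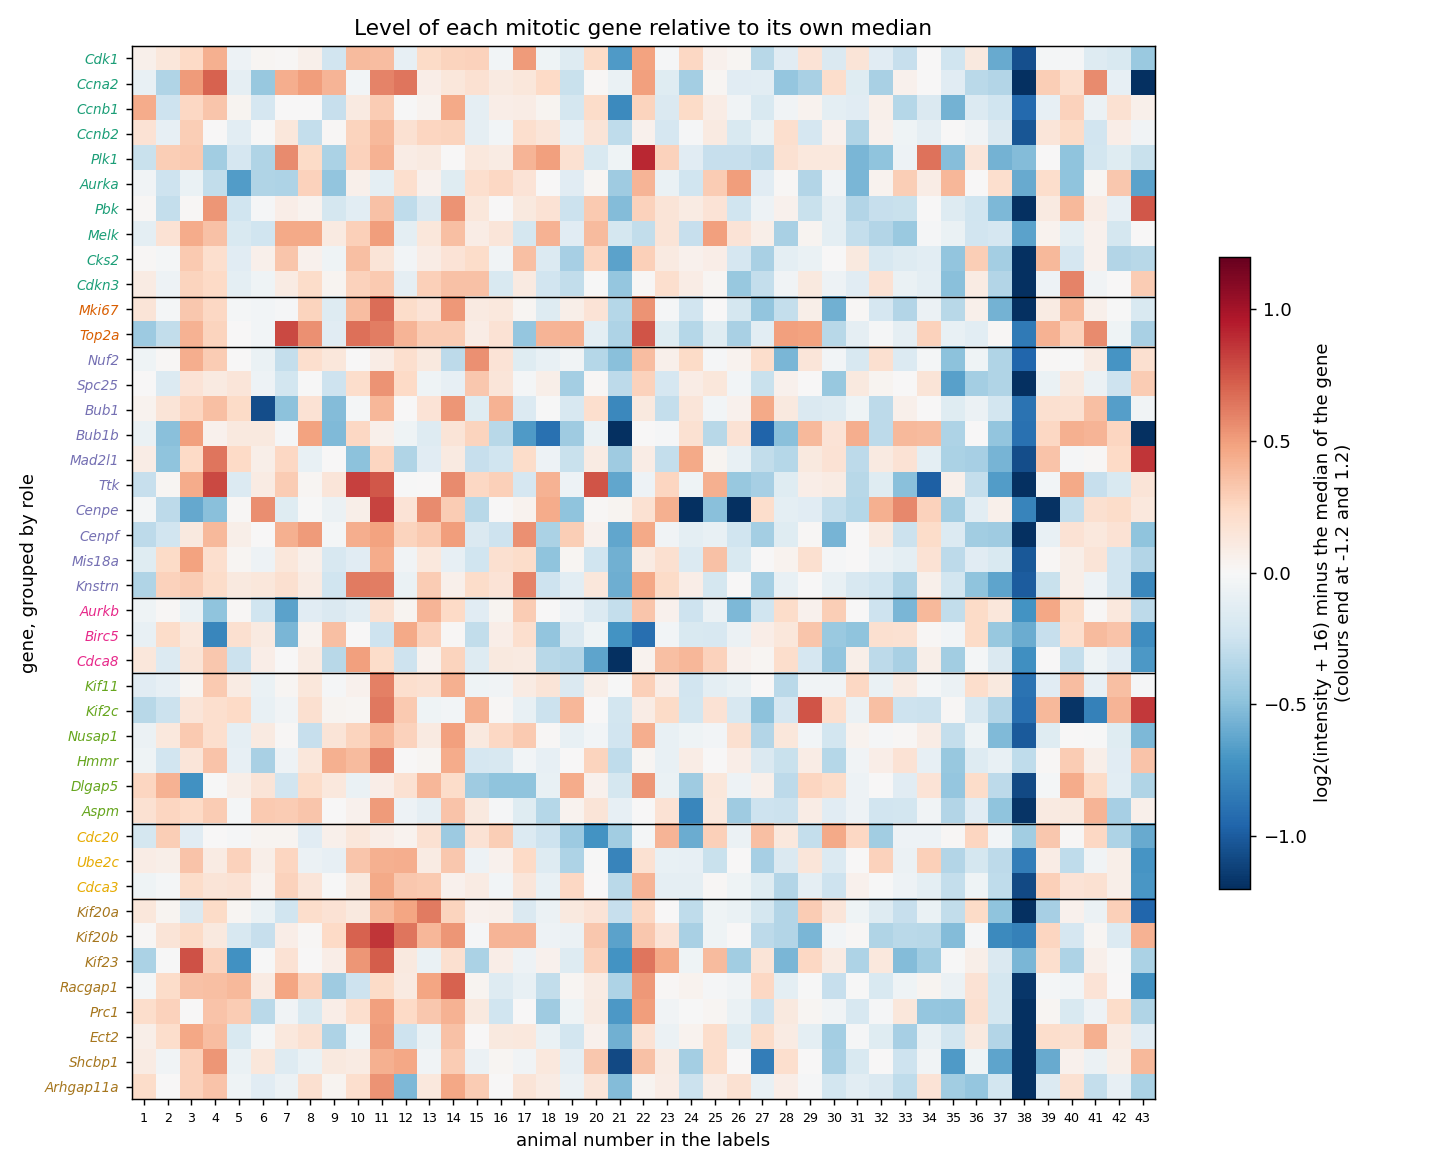
Level of each of the 42 mitotic genes (rows, grouped by role and separated by lines) in each animal (columns, by the number in the labels) as the difference from the gene's own median in log2 units, with blue for lower and red for higher. The column of animal 38 is blue in every row, with a median of -1.01, and that of animal 11 is red in 40 of the 42 rows, with a median of 0.43.

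The other animals formed a gradation rather than separate sets. The median over the 42 genes of the difference from each gene's median was -1.01 in animal 38, followed by -0.45 in animal 21, -0.35 in animal 37 and -0.32 in animal 43, and at the other end it was 0.28 in animal 22, 0.29 in animal 14 and 0.43 in animal 11. In animal 21 only 1 of 42 genes lay above its own median, and in animal 11 this was 40 of 42. Animal 11 had the highest value in 12 of 42 genes (28.6%), against 2.77% of all probe sets, among them Mki67 (9.65), Kif11 (8.37) and Spc25 (8.88). Since animal 11 was singled out by its levels of these same genes, this share is a description only. Of the 12, 5 were among the 8 genes picked from these data, and of the genes not picked that passed the filter animal 11 was highest in 6 of 31 (19.4%). In animal 43, by contrast, genes went both ways. Ccna2 was lowest there, while Mad2l1 (8.85), Pbk (9.14) and Kif2c (8.29) were highest.

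To ask which mitotic genes rise and fall together, every probe set passing the filter was regressed on Mki67 across the 42 animals other than 38, using limma with Benjamini-Hochberg adjustment over all 15520 probe sets and a threshold of 0.05. A slope is the change in log2 units per log2 unit of Mki67. Of the 38 mitotic genes tested besides Mki67, 23 were higher where Mki67 was higher and none was lower. Of all probe sets, 0.863% were called higher and 0.915% lower. Of the 30 genes tested that were not picked from these data 16 were called, and of the 8 that were picked 7. The median slope was 0.53 over the 38 genes and 0.00 over all probe sets, and 37 of 38 slopes were above 0, against 49.4% of all. With all 43 animals 33 of 38 were called higher and none lower, against 2.98% and 3.12% of all probe sets.

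**Figure D3:**
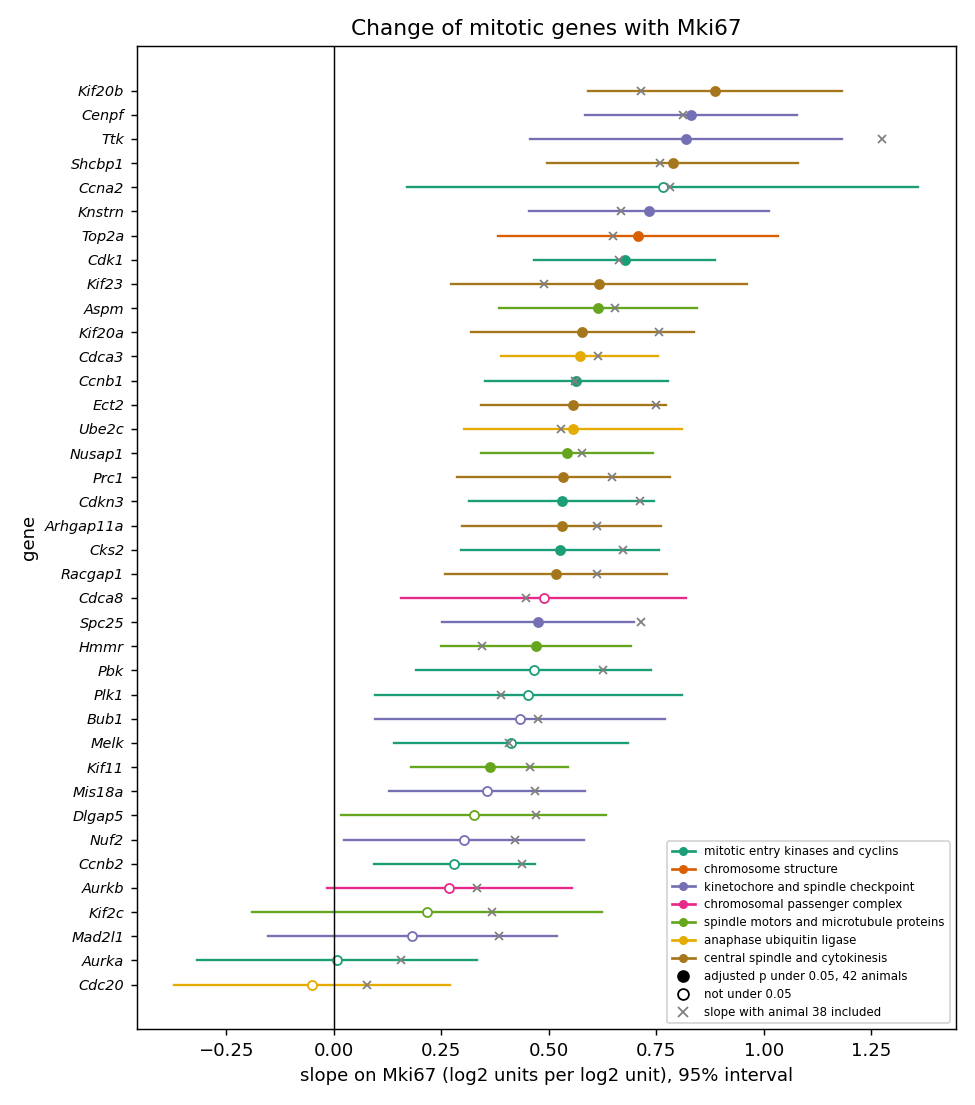
Slopes on Mki67 (x axis, log2 units per log2 unit) of the 38 mitotic genes tested (rows) in 42 animals, with 95% intervals, coloured by role. Filled points mark the 23 genes with an adjusted p under 0.05, open points the 15 others, and grey crosses the slopes with animal 38 included.

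All 8 genes of the central spindle and cytokinesis rose with Mki67. Their slopes ran from 0.52 for Racgap1 to 0.89 ± 0.15 (SE, n = 42) for Kif20b, a kinesin of abscission (adjusted p = 0.0007). Ect2 had a slope of 0.56 ± 0.11 (adjusted p = 0.0039), Shcbp1 0.79 ± 0.14 (adjusted p = 0.0033), Kif20a 0.58 ± 0.13 (adjusted p = 0.013), Prc1 0.53 ± 0.12 (adjusted p = 0.017) and Kif23 0.62 ± 0.17 (adjusted p = 0.048). Kif20b, Ect2, Shcbp1 and Arhgap11a (slope 0.53) are among the genes picked from these data, as are Knstrn, Cdca3 and Aspm below.

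Of the kinetochore and checkpoint genes 4 of 8 tested rose. Cenpf had the lowest adjusted p of the 38 genes, with a slope of 0.83 ± 0.12 (SE, n = 42; adjusted p = 0.00017). Ttk had a slope of 0.82 ± 0.18 (adjusted p = 0.013), Knstrn 0.73 ± 0.14 (adjusted p = 0.0036) and Spc25 0.47 ± 0.11 (adjusted p = 0.018). With animal 38 the slope of Ttk was 1.28 and that of Spc25 0.71. The slopes of Nuf2 (0.30), Bub1 (0.43), Mis18a (0.36) and Mad2l1 (0.18) did not pass, with adjusted p from 0.084 to 0.61.

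Among the kinases and cyclins of mitotic entry 4 of 10 rose: Cdk1 with a slope of 0.68 ± 0.10 (SE, n = 42; adjusted p = 0.00032), Ccnb1 with 0.56 ± 0.11 (adjusted p = 0.0033), Cdkn3 with 0.53 ± 0.11 (adjusted p = 0.0057) and Cks2 with 0.53 ± 0.11 (adjusted p = 0.011). Ccnb2 (slope 0.28, adjusted p = 0.095), Melk (0.41, 0.092), Plk1 (0.45, 0.16) and Pbk (0.46, 0.057) did not pass. Ccna2 had a slope of 0.76 with a wide 95% interval from 0.17 to 1.36 (adjusted p = 0.15). Without animal 43, in which Ccna2 was far below all other animals, its slope was 0.58 ± 0.16 and it passed (adjusted p = 0.035), as did Pbk (adjusted p = 0.011), among 1.42% of all probe sets called higher.

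Top2a rose with Mki67 (slope 0.71 ± 0.16, adjusted p = 0.015), as did 2 of 3 genes grouped here with the anaphase ubiquitin ligase, Cdca3 (0.57 ± 0.09, adjusted p = 0.00042) and Ube2c (0.56 ± 0.13, adjusted p = 0.015). Of motors and microtubule proteins 4 of 6 rose: Nusap1 (0.54 ± 0.10, adjusted p = 0.0033), Aspm (0.61 ± 0.11, adjusted p = 0.0033), Hmmr (0.47 ± 0.11, adjusted p = 0.018) and Kif11 (0.36 ± 0.09, adjusted p = 0.029; SE, n = 42). Neither tested gene of the chromosomal passenger complex passed, with a slope of 0.27 for Aurkb (95% interval from -0.02 to 0.55) and of 0.49 for Cdca8 (0.16 to 0.82).

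The smallest slopes belonged to Cdc20 and Aurka. For Cdc20 the slope was -0.05 with a 95% interval from -0.37 to 0.27 (adjusted p = 0.91), and for Aurka 0.01 with an interval from -0.32 to 0.33 (adjusted p = 0.99). Both intervals end below the slope of every one of the 23 genes called, the lowest of which was 0.36 for Kif11, although the difference between slopes was not tested. Mad2l1 (-0.15 to 0.52) and Kif2c (-0.19 to 0.62) had intervals that reach above that value. Of the 15 genes that did not pass, 10 had an unadjusted p under 0.05. The dim genes Bub1b, Cenpe and Birc5, tested without the filter, had slopes of 0.83, 0.25 and 0.08 (adjusted p = 0.19, 0.78 and 0.92).

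Calls were fewer within parts of the animals and with the order of the animals in the model. With a smooth trend over the animal numbers in the model 6 of 38 were called (Cdk1, Ccnb1, Cenpf, Nusap1, Cdca3 and Ect2), against 0.0838% of all probe sets, while the median slope stayed at 0.53. Within animals 1 to 22 none of the 38 was called, against 0.0193% of all probe sets (31 had an unadjusted p under 0.05 and a slope above 0) and the median slope was 0.61, and within animals 23 to 43 without 38 none was called, as was 0% of all probe sets (12 of the 38 unadjusted), and it was 0.37.

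The plot of levels against Mki67 shows the animals behind these slopes. In Cenpf, Cdk1 and Cdca3 the points followed a line from animals near 8.4 to animals near 9.7 of Mki67, with animal 38 far to the lower left. For Aurka and Cdc20 the fitted lines were nearly flat.

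**Figure D4:**
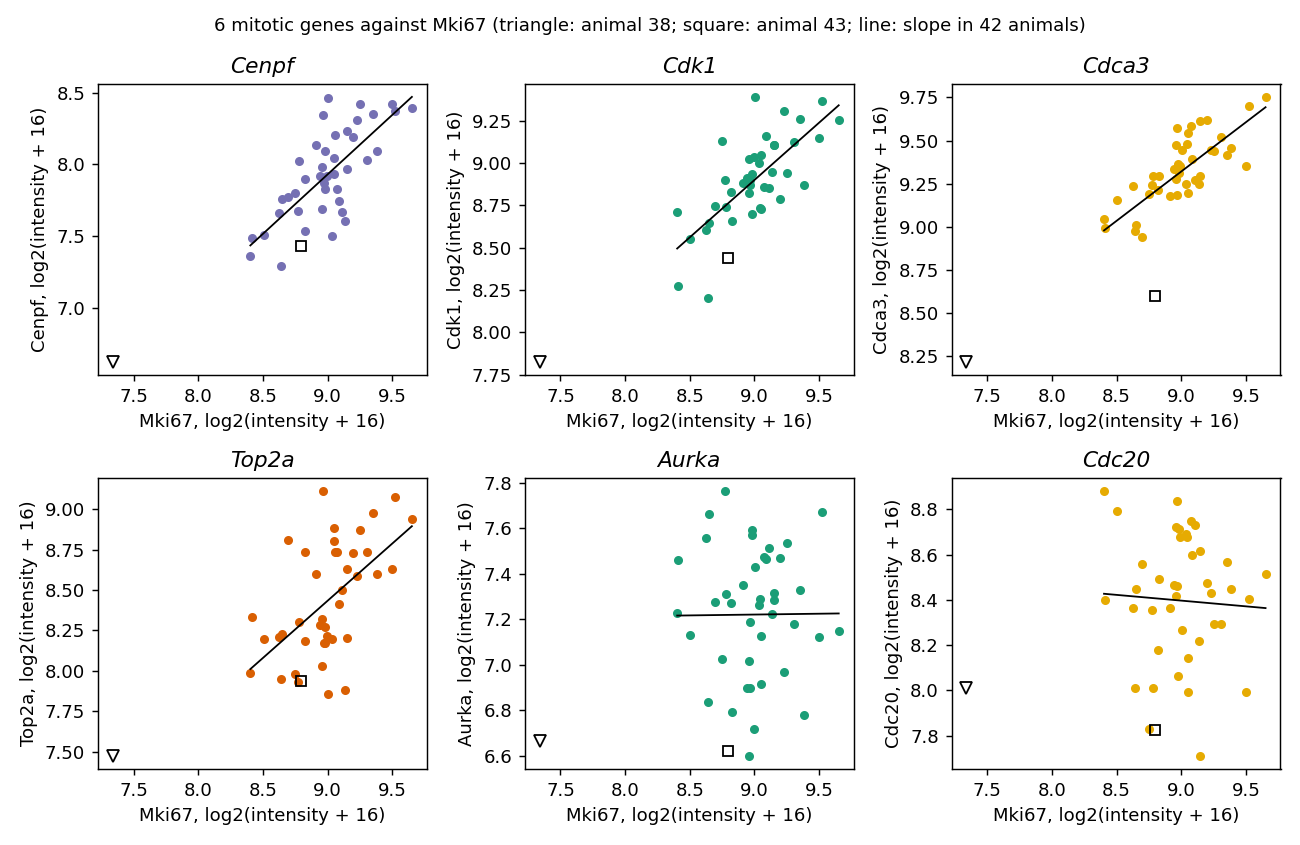
Levels of Cenpf, Cdk1, Cdca3, Top2a, Aurka and Cdc20 (y axes) against that of Mki67 (x axes), all as log2 of intensity plus 16, with 1 point per animal and the slope in the 42 animals other than 38 as a line. The slopes were 0.83, 0.68, 0.57, 0.71, 0.01 and -0.05 in that order, and animal 38 (triangle) has the lowest level of Mki67 at 7.34.

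Set beside the promoters, the 18 genes tested with at least 2 CCAAT boxes had a median slope of 0.55 and 15 of them were called. The 15 genes with 1 or none had a median slope of 0.41 and 6 were called, where 0.863% of all probe sets were called higher. With a CHR the median slope was 0.53 (16 of 23 called) and without one 0.42 (5 of 10 called). Without the genes picked from these data, 12 of 15 genes with at least 2 CCAAT boxes and 2 of 10 with 1 or none were called (median slopes of 0.53 and 0.34), and 11 of 17 with a CHR and 3 of 8 without one (0.53 and 0.39). Cdc20, with 2 CCAAT boxes and a CHR, was not called, and Arhgap11a, with neither, was. The classes rest on 1 listed start per gene, the difference between them was not tested, and genes outside the list were not divided by motif.

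With each gene in turn as the regressor, 25 of the 42 genes called at least 1 other gene of the list in 42 animals, and of the 34 not picked from these data 18 called at least 1 other such gene. These counts were 33 and 25 with all 43 animals, and 21 and 13 without animals 38 and 43. Genes outside the list were not used as regressors, so no share over all probe sets stands beside these counts. In 42 animals Mki67 called 23 (16 of 30 not picked), against 0.863% of all probe sets, and Cdk1 called 17 (11 of 30), against 0.457%. Top2a called 1, against 0.0258%. Knstrn called 22 and Kif20b 20, but against 4.81% and 1.79% of all probe sets, and both are themselves picked from these data. Ccna2, Kif20a and Racgap1 called 20.4%, 10.8% and 6.71% of all probe sets, and without animal 43 this was 0%, 0.561% and 0.0258%, with 0, 7 and 1 genes of the list in place of 11, 14 and 16. Aurka, Aurkb, Plk1, Cdc20, Kif2c, Kif23, Bub1, Cenpe and Birc5 called no other gene of the list in 42 or in 43 animals, but none of them called more than 2 of all probe sets (Plk1, 0.0129%), so that these zeros do not set the list apart. With Kif23 and Bub1 as regressors 16 and 11 genes of the list were among the 100 probe sets with the highest moderated t. Of these, 11 and 7 were not picked from these data, and with all 43 animals the counts were 20 and 20. In 42 animals the count was 2 for Plk1, 1 each for Cdc20 and Cenpe, and 0 for Aurka, Aurkb, Kif2c and Birc5. With all 43 animals it was 11 for Aurkb, 5 for Kif2c, 3 for Plk1, 1 each for Birc5, Cdc20 and Cenpe, and 0 for Aurka.

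Over the 861 pairs of the 42 genes the median Pearson r was 0.300 in 42 animals and 0.434 with animal 38, and between every 5th probe set passing the filter it was 0.007 in both. Of the 861 pairs 780 had an r above 0. Among the 34 genes not picked from these data the median r of 561 pairs was 0.244, or 0.386 with animal 38, and 487 were above 0. Pairs of the same role had a median r of 0.323 and pairs of different roles 0.292. The highest r was 0.819, between Cdk1 and Knstrn, a gene picked from these data, and the highest among genes not picked was 0.806, between Cdk1 and Cks2. The lowest was -0.388, between Mad2l1 and Cdc20. The median r of a gene with the other 41 was highest for Mki67 (0.547), Cdk1 (0.491) and Cenpf (0.466) and lowest for Cenpe (0.055), Birc5 (0.064) and Aurka (0.075). These values describe 42 animals measured on the same arrays.

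In 14 pairs of genes whose products act in 1 complex or structure, the partner was tested by limma against all probe sets with the other gene as the regressor. Of them 3 passed in 42 animals, and of the 13 pairs without a gene picked from these data 2. Cks2 followed its kinase Cdk1 with a slope of 0.77 ± 0.09 (adjusted p = 1.21e-06), rank 2 of 15520 probe sets by moderated t. The r was 0.806 and the rho 0.780, both with a permutation p of 1e-05, the smallest that 100000 permutations can give, and the r was 0.746 without the 2 animals farthest from the median of Cdk1. Ccnb1 followed Cdk1 with a slope of 0.59 ± 0.11 (adjusted p = 0.0059; r = 0.639, permutation p = 2e-05; rho = 0.604, permutation p = 8e-05; r without 2 animals = 0.534), whereas Ccnb2 had a slope of 0.27 (adjusted p = 0.17) and Ccna2 one of 0.83 (adjusted p = 0.17). The third pair was that of Racgap1 and Ect2, which it recruits to the central spindle, with a slope of 0.52 ± 0.12. Ect2 was picked from these data for following a proliferation score, so this value is a description and no test of the pair.

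Other partners ranked high without passing. Spc25 was at rank 2 of 15520 probe sets with Nuf2 as the regressor (slope 0.46 ± 0.12, adjusted p = 0.999), and with all 43 animals it was at rank 1 (adjusted p = 0.0154). Kif20a was at rank 5 with Prc1 as the regressor (slope 0.62 ± 0.13, adjusted p = 0.0995), and with all 43 animals it was at rank 1 (adjusted p = 5.47e-05). For the 3 pairs of the chromosomal passenger complex the r lay between 0.152 and 0.186, and for the centralspindlin pair of Kif23 and Racgap1 it was 0.321 (adjusted p = 0.82). Mad2l1 and Cdc20, which bind each other in the mitotic checkpoint complex, had a slope of -0.41 with a 95% interval from -0.72 to -0.11, which did not pass (adjusted p = 0.49). The interval ran from -0.60 to 0.01 without animal 43, in which Mad2l1 was highest, and from -0.63 to 0.06 with all 43 animals.

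Where a gene had several probe sets, these gave a view of the measurement error. For Ccnb1 the other probe set had an r of 0.718 with the one used, for Nusap1 0.614 and for Top2a 0.433 (42 animals). The second bright probe set of Cdc20 had an r of 0.526 with the first, and its r with Mki67 was 0.058, against -0.049 for the first. Both bright probe sets of Cdc20 thus showed the same low r with Mki67. For Hmmr, however, the other probe set had an r with Mki67 of 0.219 against 0.564 for the one used. The other probe set of Kif23, with a mean of 5.09, had an r of -0.079 with the one used. Over 17 comparisons in 13 genes the median r was 0.471 where both probe sets passed the filter and 0.258 where the other did not.

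In neighbouring pathways a smaller share was called than among the mitotic genes, and a larger one than among all probe sets. Of 135 other genes of the cell cycle and of chromosome segregation that were tested, 5 (3.70%) were higher with Mki67, against 0.863% of all probe sets, and none was lower, and with all 43 animals 24 (17.8%) were higher, against 2.98%, and 2 lower. Where the model also held a trend across the numbers of the animals, none of the 135 was called, so that the 5 named next did not pass there. They were Pttg1 (securin, the inhibitor of separase), with a slope of 0.50 ± 0.10 (adjusted p = 0.0057), Mcm6 (a subunit of the replicative helicase) with 0.50 ± 0.12 (adjusted p = 0.029), Depdc1 (from the list of other spindle and cytokinesis genes) with 0.67 ± 0.18 (adjusted p = 0.038), Tfdp1 (the dimer partner of E2F factors) with 0.21 ± 0.06 (adjusted p = 0.041) and Smc4 (a condensin subunit) with 0.56 ± 0.15 (adjusted p = 0.045; SE, n = 42). Of DNA replication genes 1 of 24 was called, with a median slope of 0.16, and the next by moderated t was Mcm2 (slope 0.26, adjusted p = 0.10). None of 9 genes of the centromeric histone and constitutive centromere network was called (Cenpk, 0.47, adjusted p = 0.073), although all 9 slopes were above 0 with a median of 0.30. None of 11 other outer kinetochore and checkpoint genes (Zwilch, 0.41, adjusted p = 0.080), of 15 core subunits of the anaphase-promoting complex (median slope 0.02) and of 13 genes of the gamma-tubulin ring and augmin (median slope 0.15) was called. Of the factors of the complexes that bind the CHR, Foxm1 (mean 6.83), Mybl2 (6.36) and Lin9 (7.11) did not pass the filter. Lin54 (slope 0.03), Lin37 (-0.07), Lin52 (-0.31), E2f4 (-0.01), Rbl1 (-0.02) and Rbl2 (0.14) did pass it. Of those that passed the filter none was called with Mki67 (limma adjusted p of 0.21 or more). Of the dimer partners of E2F factors, Tfdp1 was called, as given above, and Tfdp2 (slope -0.17, adjusted p = 0.66) was not.

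Of 43 cell type markers tested none was higher with Mki67 and 3 (6.98%) were lower, against 0.915% of all probe sets, all of them hormone subunits: Tshb with a slope of -1.61 ± 0.40 (adjusted p = 0.027), Cga, the shared alpha subunit, with -0.65 ± 0.17 (adjusted p = 0.033), and Fshb with -1.22 ± 0.32 (adjusted p = 0.035; SE, n = 42). With all 43 animals 5 (11.6%) were lower, against 3.12% of all probe sets, and 1 was higher. In the model with a trend over animal numbers none of the 43 passed (1 at an unadjusted p under 0.05 and lower), and the slopes of Tshb, Cga and Fshb were -0.58, -0.23 and -0.14. The other 3 gonadotroph markers had slopes below 0 (Nr5a1, -0.67, Gnrhr, -0.60, and Lhb, -0.30) that did not pass, and so did the 4 somatotroph markers, with a median of -0.46. The lactotroph hormone gene Prl had a slope of -0.10 with a 95% interval from -0.26 to 0.06. Of 6 macrophage markers 4 had slopes above 0, and none passed (Mrc1, 0.85, adjusted p = 0.059). The median slope was -0.26 over 4 endothelial markers and 0.42 over 3 pericyte and smooth muscle markers. The part of cell makeup in the slopes of the mitotic genes was not tested.

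**Figure D5:**
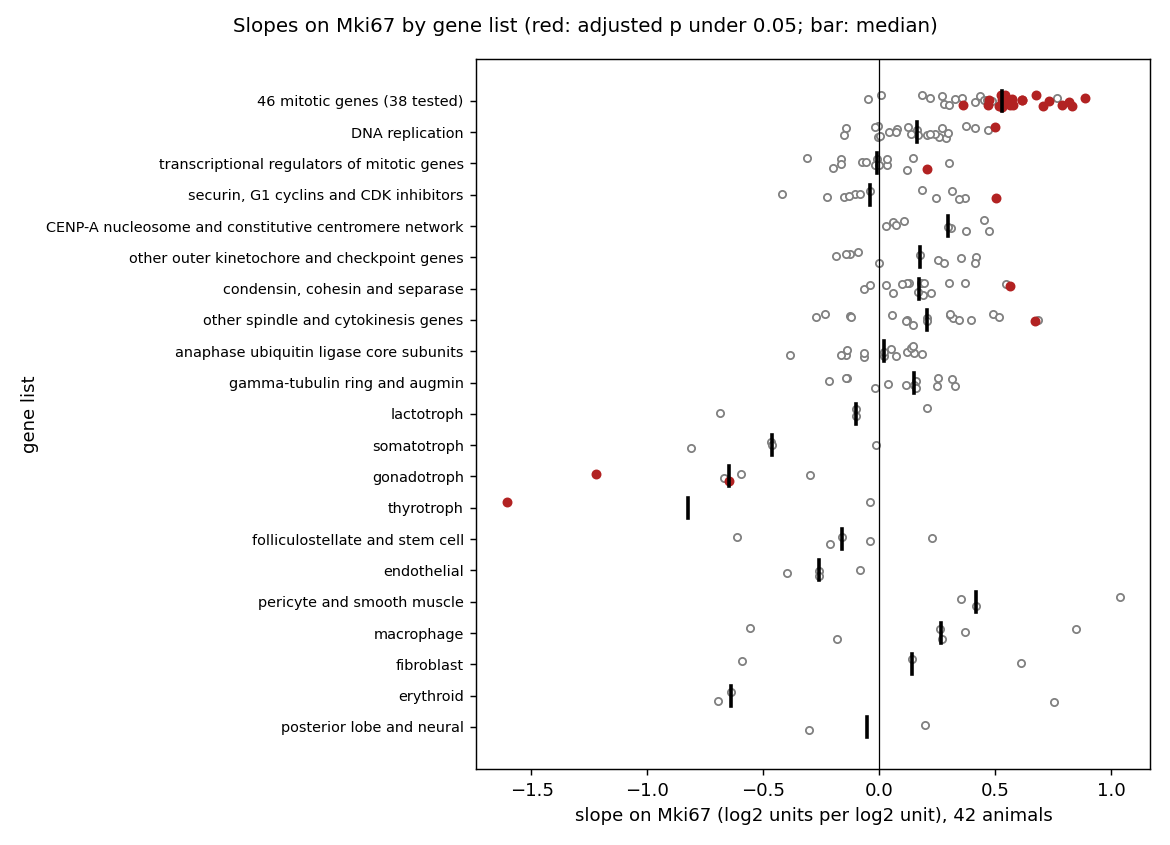
Slopes on Mki67 in 42 animals (x axis, log2 units per log2 unit) of the mitotic genes and of genes of other pathways and cell types (rows, 1 point per gene, lists with at least 2 genes tested), with red for an adjusted p under 0.05 and a bar at the median. The 38 mitotic genes tested have a median of 0.53, with 23 red points, against medians of 0.16 for DNA replication and -0.65 for gonadotroph markers.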

How the data were processed

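Values came from 1 table with 1 intensity per probe set and animal, deposited by the authors on a linear scale. The summarising software was not given in the sources used here. Arrays had been scaled by the authors, since trimming 2% of the probe sets at either end left a mean of 500.2 on each, and no 2 columns were identical. To each deposited intensity 16 was added and the log2 was taken. Of 31099 probe sets, 57 controls were left out, and 20826 were annotated to 1 gene symbol. The 15521 probe sets with a mean log2 above 7.16 were tested. Regressions on a gene used limma 3.58.1 (lmFit and eBayes) in R 4.3.3, two-sided, with Benjamini-Hochberg adjustment. Correlations of partner genes used 100000 permutations, two-sided. Animals were separate samples of 1 group, and their number limits the precision. The regression was tested on simulated data. The 46 genes, the other lists, the omission of animal 38 and the tests were chosen with earlier results of these data known. Named genes are the 46 genes, called genes and those with the largest moderated t of each list, and the 10 highest and 10 lowest by moderated t outside them. Pituitary weight and genotype were not analysed here.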

Additional observations from a re-analysis of the deposited data

How the results depend on the processing

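Of the 38 mitotic genes, 23 were called higher with Mki67, against 0.863% of all probe sets. Between 22 and 25 were called with 1 added in place of 16, quantile normalization, array medians subtracted, array quality in the model, robust empirical Bayes, or without animal 43 as well. Of all probe sets 0.838% to 1.58% were called higher in these settings. With no filter the count was 20 of 41 tested, against 0.18% of all probe sets. With the mean of all probe sets of a gene it was 18 of 33 tested, against 0.825%. The count was 2 of 2 tested with the stricter filter (1.12% of all probe sets), 6 with the trend over animal numbers (0.0838%) and 12 with ranks (0.361%). With Top2a in place of Mki67 it was 1 (0.0258%), or 20 at an unadjusted p under 0.05. Within animals 1 to 22 it was 0 (0.0193%) and within animals 23 to 43 it was 0 (0%), with 31 and 12 unadjusted. These parts have fewer animals. The cause of these lower counts was not tested. Directions changed in uncalled genes: Cdc20 had a slope of 0.077 in 43 animals, 0.027 with the trend, 0.10 with Top2a, 0.063 with Cdk1 and 0.074 within animals 1 to 22, Aurka had -0.030 without animal 43, -0.013 with quantile normalization and -0.369 within animals 23 to 43, Mad2l1 had -0.031 with Top2a, and Kif2c had -0.191 within animals 23 to 43.

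Pathway genes called higher numbered 5 of 135 tested (0.863% of all probe sets), against 24 with all 43 animals (2.98%) and 3 with ranks (0.361%). They numbered 2 of 64 tested with the stricter filter (1.12%), 1 of 180 with no filter (0.18%) and 1 within animals 1 to 22 (0.0193%). None was called with the trend, with Top2a or within animals 23 to 43 (37, 18 and 6 unadjusted), against 0.0838%, 0.0258% and 0% of all probe sets. Cell type markers called lower numbered 3 of 43 tested (0.915% of all probe sets), against 5 with all 43 animals (3.12%). None was called with no filter (68 tested), the trend, Top2a, Cdk1, ranks, animals 1 to 22 or animals 23 to 43. Unadjusted there were 15, 1, 7, 12, 14, 0 and 1. Of all probe sets 0.122%, 0%, 0.0129%, 0.335%, 0.322%, 0% and 0% were called lower in these settings, in the same order. The median pairwise r of 0.300 was 0.434 in 43 animals and 0.152 within animals 23 to 43. Of 14 pairs of partners 3 passed, and 7 with all 43 animals (2 and 6 of the 13 without a picked gene). The break between animals 22 and 23 was taken from earlier results of these arrays, and the labels give the numbers no meaning. The median of Mki67 was 9.12 in animals 1 to 22 and 8.85 in animals 23 to 43 without 38. Over the mitotic genes, the animals' median differences from each gene's median had medians of 0.08 and -0.07. Slopes over both parts thus include differences between them, and the size of that share was not tested. The design text gives 22 highest and 21 lowest pituitary weights, but no label ties these to the numbers. The omission of animal 43 from the regressions on each gene, and the count of lowest values in animal 38 with quantile normalization, were added after seeing the data. No paired analysis was possible because all animals form 1 group.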

Other observations

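Outside the mitotic genes and the other lists, the 10 genes with the highest moderated t on Mki67 in 42 animals included Jag2, a Notch ligand, with a slope of 0.92 ± 0.17 (limma adjusted p = 0.0033), Aldh1l2, a mitochondrial folate enzyme, with 0.50 ± 0.10 (adjusted p = 0.0041), and Fam111a, a protease with a role in DNA replication, with 0.88 ± 0.17 (adjusted p = 0.0056; SE, n = 42). Lox, the collagen cross-linking enzyme lysyl oxidase, had a slope of 1.14 ± 0.26, Il7r, the interleukin 7 receptor, 0.78 ± 0.17, and Xrcc3, of homologous recombination, 0.66 ± 0.15 (adjusted p = 0.015, 0.013 and 0.015). With all 43 animals Il7r had a slope of 0.39 and did not pass (adjusted p = 0.0888), and the slope of Clec4a1 fell from 0.85 to 0.54. The others were Ccnyl1, Clec4a1, Atp6ap1l and Cdca5l1, with slopes from 0.36 to 0.85 in 42 animals.

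The 10 genes with the lowest moderated t included Psme1, of the proteasome activator, at -0.45 ± 0.07 (limma adjusted p = 0.0007), Mrps6, of the mitochondrial ribosome, with -0.67 ± 0.13 (adjusted p = 0.0038), Slc2a5, a fructose transporter, with -1.23 ± 0.25 (adjusted p = 0.0057), and Pdyn, the opioid precursor prodynorphin, with -0.98 ± 0.20 (adjusted p = 0.0063; SE, n = 42). The others were Bpgm, S100a13, Itm2c, Cst3, Cryz and Mpc2, with slopes from -0.73 to -0.37. With all 43 animals the slopes of Slc2a5 and Pdyn were -0.73 and -0.59, and both passed. In the model with a smooth trend over animal numbers, 27 of the 28 called genes named outside the mitotic list kept their direction but did not pass. The exception was Cdca5l1, with a slope of 0.72 (adjusted p = 0.0203).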
